A study of Homo sapiens with 6 samples.

Results

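An array of LPS-treated and an array of IL1b-treated cells of the same breast cancer line were set against each other probe by probe. The comparison covered the target probes that the scanner software called well above background on both arrays, which were 24119 of 60639. Of these, 301 carried a transcript name in the files and 23818 carried only a number. The named probes are described first. The difference for each probe is LPS minus IL1b in quantile-normalized log2 signal, so that 1 is a 2-fold higher level with LPS and -1 a 2-fold higher level with IL1b.

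The cells were MDA-MB-231, a human triple-negative breast cancer line with mesenchymal features, and RNA was taken after 24 h of treatment. LPS is bacterial lipopolysaccharide and IL1b is the cytokine interleukin-1 beta. The arrays of cells given PBS, the vehicle control, or TNFa, tumour necrosis factor alpha, are used as context, and the labels give no dose. There was 1 array for each treatment, so no difference has a replicate check, no test was possible, and all values describe these arrays and not the treatments in general.

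LPS is sensed by TLR4 and IL1b by the IL-1 receptor, and both receptors carry an intracellular TIR domain that recruits the adaptor MyD88. From there IRAK kinases and TRAF6 activate NF-kB and MAP kinases. TLR4 can also signal from endosomes through the adaptor TRIF towards interferon genes, a branch that the IL-1 receptor lacks, and TNFa reaches NF-kB through its own receptor without MyD88. The named probes of this array cover other RNAs. They target ultraconserved regions (stretches of identical sequence in human, mouse and rat, many of them transcribed, written uc. with a + or - for the strand), the HOX clusters (homeobox genes that set position along the body axis, with many non-coding transcripts between them), a set of abundant mRNAs and a few individual long non-coding RNAs.

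None of the 21 genes listed for the shared receptor route to MyD88, the 16 for the TRIF and interferon branch or the 23 NF-kB targets was among the named probes. None of them could therefore be identified here, and whether the probes with only a number include them is not known. The same holds for 9 markers of MDA-MB-231, 7 genes low in it and 5 macrophage markers, and the label of the cell line was not checked against markers. Of 101 listed genes, 5 were named, and all 5 were measured on both arrays. These were NEAT1, MALAT1 through a product of its transcript, ACTB, GAPDH and PGK1.

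The LPS and IL1b arrays gave nearly the same level for most probes. Over the 24119 probes the median difference was 0.03, with quartiles of -0.15 and 0.19 and a robust SD of 0.24, and 55.0% of the probes lay above 0. At least 2-fold higher levels were found with LPS for 263 probes, 1.09% of those compared, and with IL1b for 129 probes, 0.535%. Scaling each array to the 75th percentile of the probes well above background on all 6 arrays, with no quantile step, changed this split to 248 against 250. RNA was taken from bulk cultures, so a change in the number of cells of a type and a change in RNA per cell cannot be told apart.

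The excess on the LPS side lay among dim probes. The lowest level called well above background was 5.94 on the LPS array and 5.17 on the IL1b array. A probe between these limits on the IL1b array could enter the comparison only with a higher level on the LPS array. There were 893 such probes, all 893 were higher with LPS, and they held 140 of the 263. Among the 23226 probes at or above 5.94 on both arrays, 123 (0.530%) were at least 2-fold higher with LPS and 129 (0.555%) with IL1b, with a median of 0.02. With the same limit on both arrays the count with LPS no longer exceeded that with IL1b.

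The spread of the difference narrowed with level. Where the mean of the 2 levels was 6 to 7, the robust SD was 0.31 and 3.23% of 5450 probes were at least 2-fold apart. Between 9 and 10 the robust SD was 0.24 and 0.477% of 2726 probes were that far apart. From 14 upwards it was 0.12, and 0 of 1314 probes reached 2-fold. Below 6 the median was 0.38 and 96.7% of 613 probes were higher with LPS, which is the range where the unequal limits act.

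Named probes were on balance slightly higher with LPS. Their median was 0.12, and 208 of 301 (69.1%) lay above 0, against 55.0% of all probes compared. At 2-fold or more, 6 of the 301 were higher with LPS and 3 with IL1b, beside 1.09% and 0.535% of all probes compared. With 5.94 as the limit on both arrays, 288 named probes remained, with a median of 0.11 and 195 above 0. Shifts of like or larger size, in both directions, also occurred in control spots designed with no human target. The 31 spots of the spike-in control ERCC-00062_278 had mean levels of 9.33 with LPS and 8.91 with IL1b, a difference of 0.42 (SD over spots 0.176), and all 31 were higher with LPS. For the adenoviral E1A control only the 29 spots well above background on both arrays were used, and these differed by 0.19 (SD 0.203). Their mean levels, 6.28 with LPS and 6.09 with IL1b, were near the unequal limits, so this choice of spots favours a higher level with LPS. The 14 bright corner spots differed by -0.13 (SD 0.0621). Whether the shift of the named probes has the same source as that of the control spots was not tested.

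Of the 9 named probes that were at least 2-fold apart, 8 target ultraconserved regions and 1 a non-coding transcript of the HOXA cluster. In the regions as a whole, 145 of 961 probes were measured on both arrays, with a median of 0.11 and 94 above 0. The + strand gave 72 of 480 probes with a median of 0.14, and the - strand 73 of 481 with a median of 0.10. At least 2-fold, 6 of the 145 were higher with LPS and 2 with IL1b, beside the 1.09% and 0.535% of all probes. Ultraconserved probes had a median level of 7.14 on the + strand and 7.86 on the - strand against 8.30 for all probes. Over all probes, 2-fold differences were more frequent at low levels (above). Of the named probes, 4 of 88 at mean levels of 6 to 7, 1 of 54 at 7 to 8 and 4 of 58 at 8 to 9 were 2-fold apart. The shares of all probes there were 3.23%, 2.51% and 0.932%. Whether level accounts for the counts in the ultraconserved regions was not tested.

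The probe uc.161- had the largest difference towards LPS. Its level was 7.61 with LPS, 5.59 with IL1b, 5.60 with TNFa and 5.44 with PBS, where the last 2 were not well above background. LPS was thus the high array and the other 3 lay close together, and the difference of 2.02 is a 4.05-fold higher level with LPS. The IL1b level was below the limit of the LPS array.

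For uc.246+ the levels were 8.70 with LPS, 6.76 with IL1b, 6.63 with TNFa and 7.66 with PBS. IL1b and TNFa were the low arrays, PBS lay between, and the level was 3.85-fold higher with LPS than with IL1b. For uc.212+ the levels were 8.97 with LPS, 7.30 with IL1b, 7.28 with TNFa and 7.79 with PBS, which gave a 3.18-fold higher level with LPS. In both probes IL1b and TNFa differed by at most 0.12, so that LPS stood apart from both cytokines.

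The probe uc.417+ had levels of 7.47 with LPS, 6.31 with IL1b, 5.76 with TNFa and 7.01 with PBS. LPS was the highest of the 4 and 2.22-fold above IL1b. In uc.25+ the level was 6.62 with LPS, 5.53 with IL1b and 6.96 with TNFa, while PBS at 3.14 was not well above background. Here IL1b was the low array among the 3 stimuli, 2.13-fold below LPS, with a level under the limit of the LPS array. In uc.258- the levels were 8.82 with LPS, 7.76 with IL1b, 8.38 with TNFa and 8.26 with PBS, so that LPS was the highest of the 4 and IL1b the lowest, 2.08-fold below it. The local background around the spots of uc.246+ and uc.258- was marked as an outlier on the LPS array.

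In the other direction uc.394+ had the largest difference of any named probe. Its level was 9.66 with IL1b and 6.97 with LPS, while TNFa at 5.64 and PBS at 5.76 were not well above background. The IL1b array was 6.49-fold above the LPS array and the highest of the 6. The probe uc.138+ had levels of 7.14 with IL1b, 6.04 with LPS, 6.12 with TNFa and 6.56 with PBS, the last not well above background, a 2.15-fold higher level with IL1b. The transcript nc-HOXA13-100, from the HOXA13 end of the HOXA cluster, had levels of 9.09 with IL1b, 7.79 with LPS, 9.80 with TNFa and 9.58 with PBS. Among these arrays LPS stood apart, 2.47-fold below IL1b and lower than TNFa and PBS too. Of the arrays not used as context, that of TGFb-treated cells was lower still, at 7.28, and that of IL6-treated cells higher, at 11.31.

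All 9 stayed at least 2-fold apart, in the same direction, under 8 settings of normalization, source of values and treatment of spots. The smallest margin was that of uc.138+, at -1.01 to -1.22. The 8 include the main setting, and several others gave nearly the same values. Rules for detection were not among them. Of the 6 higher with LPS, 4 remained with detection on all 6 arrays and 4 with 5.94 as the limit on both arrays. Of the 3 higher with IL1b, 1 and 3 remained. Just inside the threshold lay uc.258- at 1.06, uc.25+ at 1.09 and uc.138+ at -1.10. Just outside it were nc-HOXB9-197 at 0.95, uc.112- at 0.90, nc-HOXC8-150 at 0.90 and nc-HOXC4-264 at 0.87. The first 3 of these passed 2-fold in at least 1 setting. On the IL1b side the next probes were well short of it, with uc.49- at -0.66, uc.330+ at -0.60, uc.173- at -0.58 and uc.135- at -0.57, followed by uc.333- and uc.456- at -0.53 and uc.293- at -0.44.

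Both strands of an ultraconserved region were rarely measured together. Of 480 regions with a probe for each strand, 15 gave both strands on both arrays and 115 gave 1 strand. Within the 15 regions the strands differed in sign in 10, were both above 0 in 3 and both below 0 in 2, and the median absolute gap between strands was 0.42. The widest gap was in uc.246, where the + strand differed by 1.94 and the - strand, with levels of 8.55 with LPS and 8.75 with IL1b, by -0.20. In uc.419 the + strand differed by 0.62 and the brighter - strand, at 10.05 with LPS and 10.48 with IL1b, by -0.43. The difference in uc.258 lay on the - strand, at 1.06, with 0.26 on the + strand. The remaining wide gaps were in uc.48, with 0.51 on the + and -0.14 on the - strand, and in uc.18, with 0.09 and 0.63. Among the 8 ultraconserved probes at least 2-fold apart, only uc.246+ and uc.258- had an opposite strand measured on both arrays, so for the other 6 the strands could not be compared.

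The HOX clusters gave 130 measured probes, with a median of 0.15, 99 of them (76.2%) higher with LPS, against 55.0% of all probes compared. At least 2-fold, 0 were higher with LPS and 1, nc-HOXA13-100, with IL1b, beside 1.09% and 0.535% of all probes. Exon probes (30 of 93 measured) had a median of 0.17 with 25 higher with LPS. Intron probes (10 of 53) had a median of 0.18 with all 10 higher with LPS, and non-coding transcripts (90 of 212) a median of 0.13 with 64 higher. The medians of these 3 classes stayed above 0 in every setting tried, from 0.11 to 0.27, and exceeded that of all probes by 0.09 to 0.18. Probes of 1 cluster can share a transcript and are not independent. The class medians lie beside control spots at 0.42 (spike-in), 0.19 (E1A, only spots well above background on both arrays) and -0.13 (bright corners).

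By cluster, HOXC probes had the highest median, 0.23, with 34 of 40 higher with LPS, and HOXB probes had 0.18 with 29 of 35. HOXA probes had 0.09 with 18 of 27, and HOXD probes 0.03 with 15 of 25, the last at the median of all probes. The robust SD over the probes of a cluster was 0.20 to 0.23, and the difference between clusters was not tested.

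Within the HOXB cluster the 3 largest differences were in non-coding transcripts. The level of nc-HOXB9-197 was 9.38 with LPS, 8.43 with IL1b, 9.56 with TNFa and 8.17 with PBS, so that LPS and TNFa were the high arrays and IL1b lay near PBS. For nc-HOXB6-181 the difference was 0.71 and for nc-HOXB9-193 it was 0.64. In the HOXC cluster nc-HOXC4-264 had levels of 11.14 with LPS, 10.27 with IL1b, 11.25 with TNFa and 10.88 with PBS, a difference of 0.87. LPS and TNFa were the high arrays there too, but IL1b lay below PBS. The others there were nc-HOXC8-150, at 6.24 with LPS and 5.35 with IL1b, and nc-HOXC10-128, at 6.11 and 5.44, both with an IL1b level under the limit of the LPS array.

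Among protein-coding HOX genes the largest difference was in HOXD8, whose exon 1 probe (NM_019558_Exon1) had levels of 7.40 with LPS, 6.58 with IL1b, 7.23 with TNFa and 7.44 with PBS. IL1b was the low array, by 0.81 against LPS. HOXD1, at its exon 1, went the other way, at 6.10 with LPS and 6.49 with IL1b, a difference of -0.39, and the non-coding nc-HOXD4-33 differed by 0.48. In the HOXA cluster, beside nc-HOXA13-100, nc-HOXA4-65 differed by 0.56.

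Probes of 1 gene did not always go together. Of 26 genes with exon or intron probes measured, 8 had several, and in 4 of those, HOXB3, HOXB7 and HOXD1 among them, the probes differed in sign. The exon 2 probe of HOXB3 was higher with LPS by 0.40 and its exon 4 probe differed by -0.34. In HOXB7 the exon 2 probe differed by 0.39 and the exon 1 probe by -0.28. In the other 4 genes all probes lay above 0, as in HOXB6 (3 probes, 0.17 to 0.32) and HOXC8 (2 probes, 0.17 and 0.48). Such gaps between probes of 1 gene were as large as most differences between the treatments in these clusters.

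HOX probes were mostly brighter with PBS than with either stimulus. The PBS level lay above both LPS and IL1b in 115 of 130 probes (88.5%), against 46.8% of all probes compared. In 88 of the 130 (67.7%) the order was PBS, then LPS, then IL1b, and in 27 (20.8%) it was PBS, then IL1b, then LPS. For all probes these orders made up 32.5% and 14.2%. HOXB4 exon 1 is an example, with 8.65 with PBS, 7.03 with LPS and 6.58 with IL1b. In the HOX probes the gap between the stimuli was therefore mostly a smaller distance of LPS from PBS. The spike-in control ERCC-00062_278, designed with no human target, followed the same order, at 9.60 with PBS, 9.33 with LPS and 8.91 with IL1b. Whether spike-in RNA was added to these samples was not checked. The E1A control, over its spots well above background with LPS and IL1b, had 6.23, 6.28 and 6.09, and the bright corner spots 14.33, 13.46 and 13.59. Whether the order in the HOX probes has the same source as that in the spike-in was not tested. The PBS array was the dimmest of these 4, with 33.2% of probes well above background against 40.7% with LPS, 49.0% with IL1b and 43.5% with TNFa, and its part in this order was not tested.

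The mRNAs spotted repeatedly gave the most precise values. Of 20 such mRNAs, 18 were measured on both arrays, each from 8 to 10 spots an array, and RPL10 and GRM4 were not well above background on either. The SD over repeat spots was 0.0576 at the median, and the standard errors below come from these spots, so they cover spot noise and not the spread between cultures. The 18 differences ran from -0.25 to 0.11, with a median of -0.03 and 7 above 0, and none approached 2-fold. In 10 mRNAs the difference exceeded 2 standard errors, 8 of them higher with IL1b and 2 with LPS. This split depends on the scaling. Of the 18 mRNAs, 7 were higher with LPS here, 11 with cyclic loess, and 16 and 14 under the 2 forms of 75th percentile scaling.

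MTX1, a subunit of the protein import machinery of the outer mitochondrial membrane, had levels of 12.32 with LPS, 12.56 with IL1b, 12.31 with TNFa and 12.42 with PBS. Its difference was -0.25 ± 0.036 (SE over spots). PRMT1, the main arginine methyltransferase of mammalian cells, had levels of 12.36 with LPS, 12.60 with IL1b, 12.62 with TNFa and 11.27 with PBS, a difference of -0.24 ± 0.020. For MTX1 the IL1b array was the high one, whereas for PRMT1 both cytokines lay above LPS and all 3 stimuli lay above PBS. These 2 mRNAs kept their sign in every setting tried, from -0.26 to -0.09.

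The remaining mRNAs differed by less. ARHGDIA differed by -0.14 ± 0.040 and the actin-binding PFN1 by -0.12 ± 0.056. GAPDH of glycolysis, with levels of 16.20 with LPS and 16.25 with IL1b, differed by -0.05 ± 0.017. ACTB, cytoplasmic beta-actin, at 16.83 and 16.72, had the largest difference of the set towards LPS, 0.11 ± 0.030. The glycolytic PGK1 differed by 0.06 ± 0.019. The gamma-actin gene ACTG1 differed by -0.06 ± 0.024 and the ribosomal RPS18 by -0.05 ± 0.013. The other 8 lay within 2 standard errors of 0, from ODC1 of polyamine synthesis at -0.05 to the ribosome-associated RACK1 at 0.07, with H3-3A, RPLP1, EIF3D, DYNLL1 and COX4I1 among those between them. The sign of 10 of the 18 turned in at least 1 other setting, among them ARHGDIA, PFN1, ACTG1, GAPDH, RPS18 and PGK1, so for these no direction can be given.

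The other named transcripts, 8 of 26 measured, were all slightly higher with LPS, with a median of 0.22. TncRNA, a name of NEAT1, the architectural RNA of nuclear paraspeckles, had levels of 13.52 with LPS, 13.38 with IL1b, 13.31 with TNFa and 11.96 with PBS. The 3 stimuli lay together above PBS, and LPS and IL1b differed by 0.14. The small cytoplasmic mascRNA, cleaved from the MALAT1 transcript, had levels of 8.27 with LPS, 8.01 with IL1b, 8.02 with TNFa and 7.86 with PBS, a difference of 0.26. The probe named p53mRNA had levels of 11.11 with LPS, 11.04 with IL1b, 10.50 with TNFa and 9.93 with PBS, a difference of 0.06.

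Others of the 8 were ENST00000523627 at 0.12, ENST00000519624 at 0.20, Alpha250 at 0.25 and AY195961 at 0.27. None of the 8 changed sign in the settings tried. They are to be read beside the control spots, at 0.42, 0.19 (E1A, only spots well above background on both arrays) and -0.13.

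For context, the TNFa and PBS levels of the probes at least 2-fold apart were compared where these arrays had them well above background. TNFa was measured in 186 of the 263 probes higher with LPS, and was nearer to IL1b than to LPS in 115 (61.8%). This is close to the 58.2% of all 23537 probes with a measured TNFa level. Of the 129 probes higher with IL1b, TNFa was measured in 119 and nearer to IL1b in 92 (77.3%). For the probes high with IL1b, TNFa where measured thus mostly lay on the IL1b side. The requirement that TNFa be measured leaves out probes dim with TNFa. Without it TNFa was nearer to IL1b in 192 of the 263 (73.0%) and 92 of the 129 (71.3%), against 58.8% of all 24119 probes. Both directions then gave a like share.

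PBS was measured in fewer of them, 113 of the 263 and 50 of the 129. Its level was nearer to IL1b in 26 of the 113 (23.0%) and in 15 of the 50 (30.0%), against 34.6% of all 19517 probes with a measured PBS level. Where measured, PBS was therefore more often nearer to LPS in both directions, as it was over all probes. The requirement that PBS be measured leaves out probes dim with PBS. Without it PBS was nearer to IL1b in 146 of the 263 (55.5%) and 15 of the 129 (11.6%), against 35.0% of all 24119 probes. For the probes higher with LPS the result thus depended on this requirement.

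Probes well above background on all 6 arrays numbered 94 of the 263 and 47 of the 129. LPS was the highest of the 6 arrays in 49 of the 94 and IL1b in 30 of the 47. These probes were chosen for a high level on that array, so the counts are a description; over all 19077 such probes LPS was the highest in 13.9% and IL1b in 13.6%. A level at least 2-fold above each of the other 5 arrays was found for 5 probes with LPS and 6 with IL1b.

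Among probes with only a number, the largest difference towards LPS was in ASHG19A3A031137, at 8.46 with LPS and 5.52 with IL1b (7.63-fold), followed by ASHG19A3A011799 at 8.68 and 5.82 (7.23-fold). Towards IL1b it was ASHG19A3A011505, at 6.38 with LPS and 9.60 with IL1b (9.32-fold), followed by ASHG19A3A014137 at 6.53 and 9.49 (7.79-fold). The genes of these 4 probes are not named in the sources used here. In all 4 the level on the dimmer array was at most 6.53, near the limits of measurement.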

How the data were processed

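The sources were 6 single arrays of MDA-MB-231 RNA, 1 per treatment. The labels describe a NimbleGen-format Arraystar array read on an Axon scanner, whereas the files are 1-colour Agilent output with 62738 spots per array; the files were followed. The deposited intensity values are processed signals, already background-corrected, per the file headers. The authors also deposited a log2 series table, for which the submitters' processing notes name RMA, without a version. Over the probes compared it equalled the values used here to a median absolute difference of 0.000393 (LPS) and 0.000262 (IL1b).

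Outlier spots were dropped, repeat spots of a probe averaged on the log2 scale, and all 6 arrays quantile normalized with limma 3.58.1 (R 4.3.3). Before this step the IL1b array was 1.87-fold brighter at the median. Target probes numbered 60639, of which 60596 were used; the other 43 lacked a usable spot on at least 1 array. Well above background were 24119 on both arrays, 534 on LPS only, 5589 on IL1b only and 30354 on neither. No spot was saturated. The number of arrays limits the precision, and the labels do not say how cultures were handled.

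Probes were counted from 2-fold up, without a test. Named in the text are the 10 largest differences each way among named probes, every mRNA with repeat spots, every other named transcript, the 3 largest of each HOX cluster, the 5 ultraconserved regions with the widest gap between strands, listed genes and the 2 largest each way of numbered probes; a few items under this rule are not reported here, and further HOX probes serve as examples and were picked with their values in view. The members and lists were chosen with earlier results of these data known. Of 166 probes with a RefSeq mRNA accession, 160 matched a symbol in the RefSeq table of GRCh38.p14. Positions are not printed, as no source names the array's genome build. The alternatives were quantile scaling of LPS and IL1b alone, 2 forms of 75th percentile scaling, cyclic loess (span 0.7, 3 iterations), the series table, outlier spots kept, the median of repeat spots, other detection rules, and thresholds of 1.5-fold and 3-fold. The count rule was tested on simulated data.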

Additional observations from a re-analysis of the deposited data

Results flagged for a closer look

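Negative control spots, which no comparison above uses, were called well above background more often with the 2 stimuli than with PBS. This held for 1.83% of 600 negative control spots on the LPS array (11 spots) and 2.33% on the IL1b array (14 spots), against 0.5% on the PBS array (3 spots). The TNFa array had 1.83% (11 spots).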

How the results depend on the processing

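No paired analysis was possible because each treatment has 1 array and the labels carry no replicate numbers; for the same reason no array could be left out in turn. Background correction by normexp was not run, since the mean and background signal columns were not used here. The 263 probes at least 2-fold higher with LPS became 419 with cyclic loess, 94 with detection on all 6 arrays, 658 with detection on at least 1 of the 2 arrays, and 123 with 1 common detection limit, an alternative chosen after seeing the data. The 129 higher with IL1b became 250 with 75th percentile scaling over probes detected on all 6 arrays, 47 with detection on all 6, and 236 with detection on at least 1. Thresholds of 1.5-fold and 3-fold gave 924 and 63 with LPS and 1020 and 16 with IL1b. The share higher with LPS was 67.1% in the main setting, 76.6% with loess, 49.8% with the second form of scaling, 48.8% with the common limit and 47.5% at 1.5-fold. The 6 named probes higher with LPS became 13 with detection on at least 1 array, 20 at 1.5-fold and 3 at 3-fold. They became 4 with detection on all 6 arrays and 4 with the common limit. The 3 higher with IL1b became 1 with detection on all 6, 5 with detection on at least 1, 5 at 1.5-fold and 1 at 3-fold. They stayed at 3 with the common limit. The median of the mRNAs with repeat spots moved to 0.26 and 0.18 under the 2 forms of 75th percentile scaling, and that of HOX introns to 0.27 under the first. The cause was not tested. No scaling moved the median of all probes beyond 0.09. Of 54 named results, 10 changed sign, all of them mRNAs with repeat spots.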

Other observations

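Named probes well above background on 1 of the 2 arrays were left out of the comparison. There were 13 with a level on the LPS array only and 95 on the IL1b array only, which is the array with the lower limit. For these the brighter level was set against the higher of the dim probe's own value and the lowest level well above background on the dim array, which is not a strict lower bound. On this measure 7 probes were 2-fold or more higher with LPS. All 7 were ultraconserved, as were 11 of the 13. Over all probes measured on 1 array, 74.0% of 534 reached 2-fold with LPS and 1.91% of 5589 with IL1b. The unequal limits favour LPS in this measure. A probe on the LPS array only starts at 5.94 and can be set against 5.17. A probe on the IL1b array only starts at 5.17 and is set against 5.94. The counts of the 2 directions therefore cannot be compared, nor can those given above with detection on at least 1 array. With LPS levels of 7.92 and 7.88, uc.146- and uc.291+ stood highest, by 6.76-fold and 6.57-fold. Next came uc.342- at a level of 7.47 (4.94-fold) and uc.378+ at 7.38 (4.62-fold). The probes uc.80- and uc.241- were higher by 3.65-fold and 3.49-fold, and uc.206+, at a level of 6.20, by 2.04-fold.

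Towards IL1b 2 probes passed 2-fold. These were exon 2 of HOXC11 (NM_014212_Exon2, 7.22 with IL1b, 2.42-fold) and uc.282+ (7.15, 2.32-fold). The exon 1 probe of HOXC11, measured on both arrays, went the other way, at 6.51 with LPS and 6.01 with IL1b, so the 2 exons of this gene differed in direction.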
